A study of Mus musculus with 25 samples.

Results

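To describe fat cell transcripts in aging muscle, 10 genes that mark white adipocytes were followed in the gastrocnemius of 25 SAMP8 mice. The genes were chosen by name, as Adipoq, Cfd, Plin1, Plin4, Cidec, Fabp4, Car3, Pparg, Retn and Lep, with earlier results of these data known. Of these, 8 were among the 8829 genes measured, and Pparg and Lep were not analysed here. SAMP8 is an inbred line of mice that shows signs of aging early. All mice were male, started treatment at 8 months of age and were treated for 3 months by oral gavage. The control mice (n = 11) received the corn oil vehicle, and the thymol mice (n = 14) received thymol, a phenol found in thyme, in that vehicle. The dose was 20 mg per kg on each day of gavage, and gavage was not given on every day of the week. Each mouse gave 1 library of 3′ mRNA sequencing, a method that reads the ends of polyadenylated transcripts, so that a value is not scaled by transcript length. No mice of another strain or age were among these samples, and the whole tissue was used, so that fewer cells of a type and less RNA per cell cannot be told apart.

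White adipocytes store triglycerides in a single large lipid droplet and release fatty acids from it when other tissues need fuel. They also secrete hormones, the adipokines, that act on muscle and liver. In skeletal muscle, adipocytes lie between fibers and bundles as intermuscular fat, which is known to accumulate with age and inactivity, and they arise there from fibro-adipogenic progenitors. Muscle fibers store fat as well, in small droplets that serve their mitochondria, and some droplet proteins are shared by both cell types. Among the listed genes, Adipoq, Cfd and Retn encode the secreted proteins adiponectin, adipsin (complement factor D) and resistin. Plin1, Cidec and Plin4 encode droplet proteins. Plin1 controls access of lipases to the droplet, Cidec helps small droplets to fuse, and Plin4 is found on droplets of adipocytes and muscle fibers. Fabp4 is the fatty acid carrier of adipocytes and is also made by endothelial cells and macrophages. Car3 encodes a carbonic anhydrase that is abundant in adipocytes and in slow muscle fibers.

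The start regions of Adipoq, Cfd, Retn and Cidec are shown because these genes, with Plin1, rose and fell together between mice although they lie on different chromosomes. Each run holds the 250 bases before the RefSeq start site on GRCm38.p6, read 5′ to 3′ on the strand of the gene. The Adipoq window is chr16:23146286-23146535 on the plus strand, the Cfd window is chr10:79890603-79890852 on the plus strand, the Retn window is chr8:3655520-3655769 on the plus strand and the Cidec window is chr6:113435761-113436010 on the minus strand. Capitals mark each match, on either strand, to CCAAT (bound by NF-Y), TATAAA (the TATA box), TTGCNNAA (a C/EBP site) or AGGTCA (a core sequence bound by nuclear receptors).
Adipoq: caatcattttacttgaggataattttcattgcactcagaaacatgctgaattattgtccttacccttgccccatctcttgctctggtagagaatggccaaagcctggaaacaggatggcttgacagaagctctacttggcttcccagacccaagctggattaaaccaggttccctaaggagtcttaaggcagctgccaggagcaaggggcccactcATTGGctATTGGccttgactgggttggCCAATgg
Cfd: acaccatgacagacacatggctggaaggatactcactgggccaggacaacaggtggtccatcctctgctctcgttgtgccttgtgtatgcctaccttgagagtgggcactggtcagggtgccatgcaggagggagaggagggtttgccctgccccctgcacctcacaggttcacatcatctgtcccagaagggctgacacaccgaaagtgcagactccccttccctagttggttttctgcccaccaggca
Retn: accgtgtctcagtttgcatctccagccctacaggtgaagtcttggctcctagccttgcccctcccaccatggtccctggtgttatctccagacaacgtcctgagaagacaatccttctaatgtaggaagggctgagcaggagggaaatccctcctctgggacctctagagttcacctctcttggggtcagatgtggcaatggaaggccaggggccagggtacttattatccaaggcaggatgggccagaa
Cidec: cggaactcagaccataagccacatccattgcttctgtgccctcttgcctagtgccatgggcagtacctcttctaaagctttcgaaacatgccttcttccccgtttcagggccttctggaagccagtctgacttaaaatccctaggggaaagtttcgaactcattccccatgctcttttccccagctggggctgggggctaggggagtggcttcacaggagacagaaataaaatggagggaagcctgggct
The Adipoq window held 3 matches to CCAAT, which began 34, 27 and 7 bases before the start, and no match to the other 3 motifs. The windows of Cfd and Retn and the Cidec window shown held no match to any of the 4 motifs. A second Cidec window, before a start farther along the gene (chr6:113434765-113435014, minus strand), held 1 match to TTGCNNAA, 198 bases before that start. The Plin1 window (chr7:79732777-79733026, minus strand) is not printed because part of it lies within the Plin1 gene model of GENCODE, and it held 2 matches to TTGCNNAA, 187 and 58 bases before the RefSeq start. Of all 32851 windows of this length, 33.8% held CCAAT, 12.4% held TATAAA, 9.56% held TTGCNNAA and 14% held AGGTCA. None of the 4 motifs was thus found in all 5 genes, which describes the letters of these windows only.

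The libraries held 4463818 to 9463418 reads on the measured genes. Values are log2 CPM, the log2 of reads scaled to the same library size, as the authors deposited them. They include an added 0.267 CPM, so that 0 reads stand at -1.9 and low values are raised. The reads behind each value were recovered from the table. The reads were amplified by PCR and carry no molecular identifiers here, so that statements on read numbers cover counting error only. Ckm and Acta1, which define mature skeletal muscle, had at least 13.47 and 14.52 log2 CPM in every mouse. Mice are named by their group and the last number of their label.

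The secreted products differed widely between mice of both groups. Adipoq reached 2.38 log2 CPM in the lowest, 4.09 in the median and 7.23 in the highest control mouse, and 1.44, 4.45 and 7.06 in the thymol mice. Cfd, the most abundant of the 3, reached 3.67, 6.59 and 9.87 in control and 3.03, 6.95 and 9.08 in thymol mice. Retn reached 1.46, 2.70 and 5.94 in control and -0.27, 3.51 and 5.57 in thymol mice. The groups overlapped over nearly their whole range for each of the 3 genes. In reads, Adipoq went from 13 in Thymol 3 to 1149 in Control 19, with a median of 129. The droplet genes Plin1 and Cidec behaved alike. Plin1 reached 1.71, 2.84 and 5.68 log2 CPM in control and -0.64, 3.01 and 6.16 in thymol mice. Cidec reached 1.15, 2.55 and 6.09 in control and -0.64, 2.70 and 5.73 in thymol mice. Thymol 3 was the lowest mouse for all 5 of these genes, with 13 Adipoq reads, 42 Cfd reads, 3 Retn reads, 2 Plin1 reads and 2 Cidec reads. Control 19 and Thymol 7, 1 mouse of each group, were the highest 2 mice for all 5 genes. The summed level of the 5 genes, without the added 0.267 CPM, went from 11.6 CPM to 1268 CPM, with a median of 142 CPM.

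**Figure D1:**
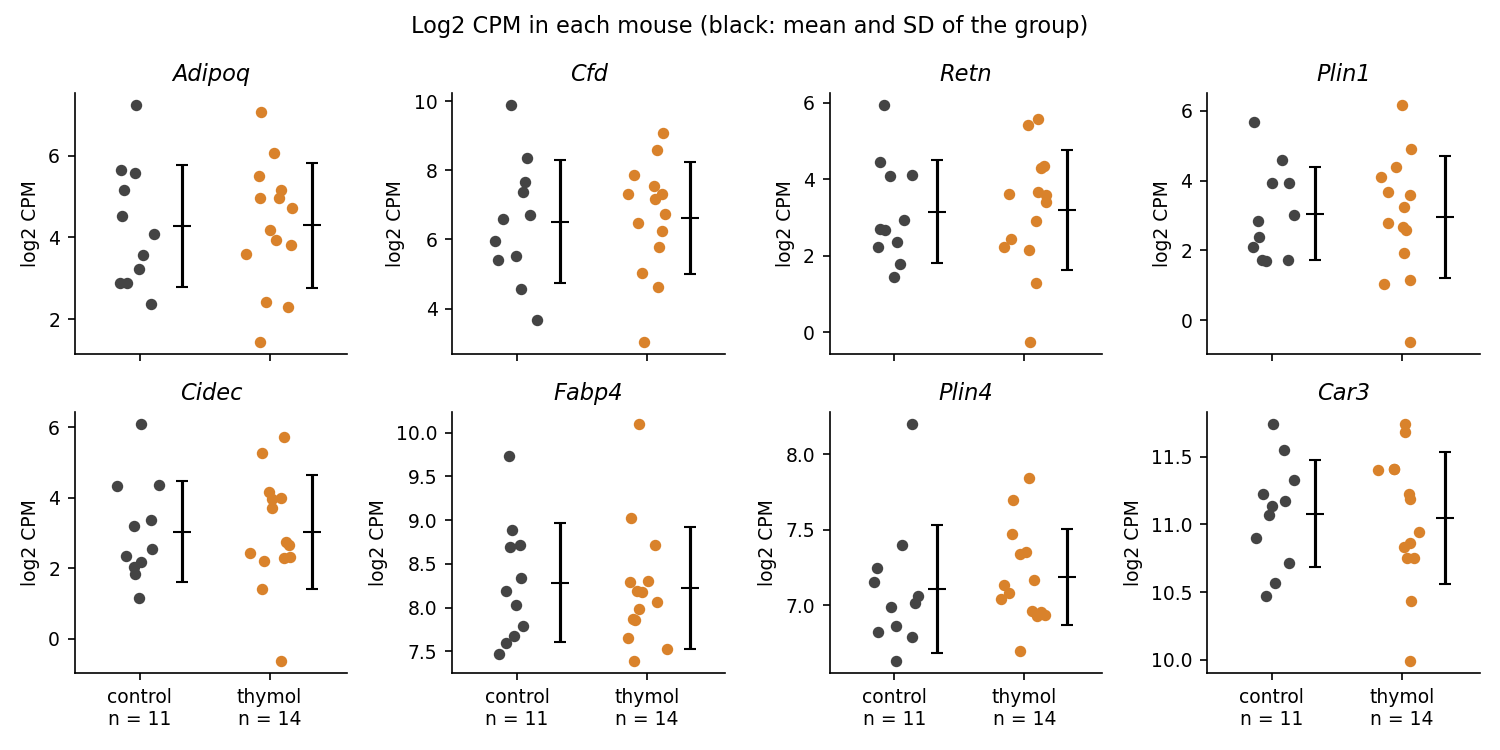
Log2 CPM (y axis) of the 8 measured genes in each of 11 control (grey) and 14 thymol mice (orange), with the mean and SD of each group in black. The upper row and Cidec span 5.79 to 6.85 log2 units between mice and the other 3 genes span less, and both groups cover similar ranges in every panel; y axes differ between panels.

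Fabp4, Plin4 and Car3 were more abundant and varied less. Fabp4 reached 7.47 log2 CPM in the lowest, 8.19 in the median and 9.73 in the highest control mouse, and 7.39, 8.12 and 10.10 in the thymol mice. Plin4 reached 6.63, 7.01 and 8.20 in control and 6.70, 7.10 and 7.84 in thymol mice. Car3 reached 10.47, 11.14 and 11.74 in control and 9.99, 11.07 and 11.74 in thymol mice. Thymol 7 and Control 19 were again the highest mice for Fabp4, Control 19 was the highest for Plin4, and Thymol 30 was the highest for Car3. Thymol 3, which had hardly any reads of Plin1, Cidec and Retn, still had 981 Fabp4, 661 Plin4 and 9733 Car3 reads.

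The spread between mice separated the same genes. Over 25 mice the SD was 1.65 log2 units for Cfd, 1.55 for Plin1, 1.51 for Cidec, 1.48 for Adipoq and 1.44 for Retn. These were the 7th, 15th, 19th, 21st and 23rd largest SDs of 8829 genes, for which the median SD was 0.28. Fabp4 had an SD of 0.67 (rank 224), Car3 of 0.44 (rank 1352) and Plin4 of 0.36 (rank 2466). For Car3 and Plin4, 84.7% and 72.1% of all genes had a smaller SD. At the median number of reads, counting alone would give an SD of 0.13 log2 units for Adipoq, 0.20 for Plin1, 0.22 for Cidec and 0.19 for Retn, each far below the SD between mice. For Cfd it would give 0.051, for Plin4 0.045, for Fabp4 0.030 and for Car3 0.011. Counting error is larger at low counts, such as the 2 or 3 reads of Plin1, Cidec and Retn in Thymol 3.

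The genes with a large spread moved together from mouse to mouse. The 8 genes form 28 pairs, for which the median Pearson r over 25 mice was 0.83. In the 10 pairs among Adipoq, Cfd, Retn, Plin1 and Cidec, r was 0.92 to 0.97 and Spearman's rho was 0.91 to 0.98, and each of these had a permutation p of 1e-05, the smallest that 100000 two-sided permutations can give. Without the 2 mice farthest from the median of the gene on the x axis, r was 0.88 to 0.96. Within the control mice r was 0.91 to 0.98 and within the thymol mice it was 0.93 to 0.99. Fabp4 followed these 5 genes with r of 0.82 to 0.88 and rho of 0.81 to 0.90 (permutation p of at most 2e-05), 0.80 to 0.83 without the 2 farthest mice, 0.85 to 0.92 within control and 0.80 to 0.88 within thymol mice. These p-values are unadjusted, and the 28 pairs share genes and mice. The 5 genes were grouped after their values were seen, so the p-values do not test the grouping.

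**Figure D2:**
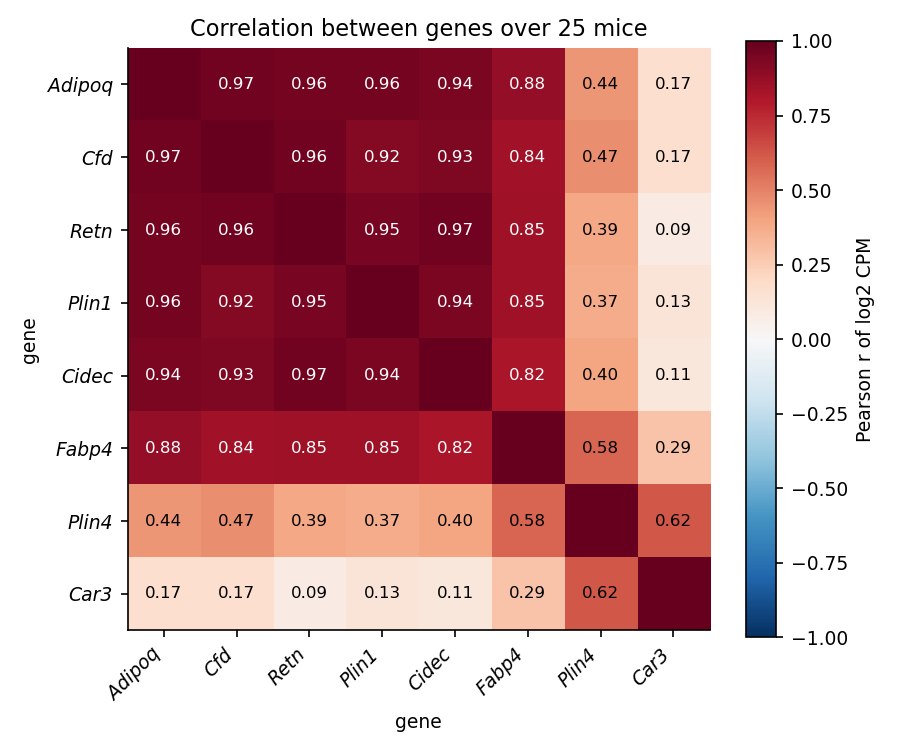
Pearson r of log2 CPM over 25 mice for each pair of the 8 measured genes, as numbers and colors from -1 (blue) to 1 (red). Adipoq, Cfd, Retn, Plin1 and Cidec form a block with r of 0.92 to 0.97, Fabp4 joins it at 0.82 to 0.88, and Plin4 and Car3 have lower r with these 5 genes, with 0.62 between them and 0.58 between Plin4 and Fabp4.

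Co-variation with Adipoq was then tested across all genes, with treatment in the model (limma, Benjamini-Hochberg adjustment over 8828 genes). The test was passed by 0.736% of the genes (adjusted p under 0.05), and 5 of the 7 other measured markers were among them. A rise of 1 log2 unit in Adipoq went with a rise of 1.08 ± 0.052 (SE) in Cfd (adjusted p = 3.32e-15), of 1.0 ± 0.060 in Plin1 (adjusted p = 4.09e-13) and of 0.93 ± 0.056 in Retn (adjusted p = 4.09e-13). The slope was 0.96 ± 0.066 for Cidec (adjusted p = 7.36e-12) and 0.40 ± 0.042 for Fabp4 (adjusted p = 1.13e-07). The 95% intervals of the first 4 slopes included 1, which is a change in proportion to Adipoq, and the interval of Fabp4, 0.31 to 0.48, did not. The slopes of Plin4, 0.11 ± 0.042 (unadjusted p = 0.0156, adjusted p = 0.371), and of Car3, 0.050 ± 0.055 (adjusted p = 0.85), did not pass the test.

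The same difference showed in the number of reads per Adipoq read. Cfd gave 2.53 to 9.58 reads per Adipoq read over the 25 mice, with a median of 5.10. Plin1 gave 0.141 to 0.690, Cidec 0.154 to 1 and Retn 0.231 to 0.941. Fabp4 gave 5.67 reads per Adipoq read in Control 19 and 75.5 in Thymol 3. Plin4 went from 1.56 in Thymol 7 to 50.8 in Thymol 3, and Car3 from 17.6 in Thymol 7 to 749 in Thymol 3. Where Adipoq was lowest, Fabp4, Plin4 and Car3 were thus highest relative to it, which restates their slopes below 1 and is not a separate result.

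**Figure D3:**
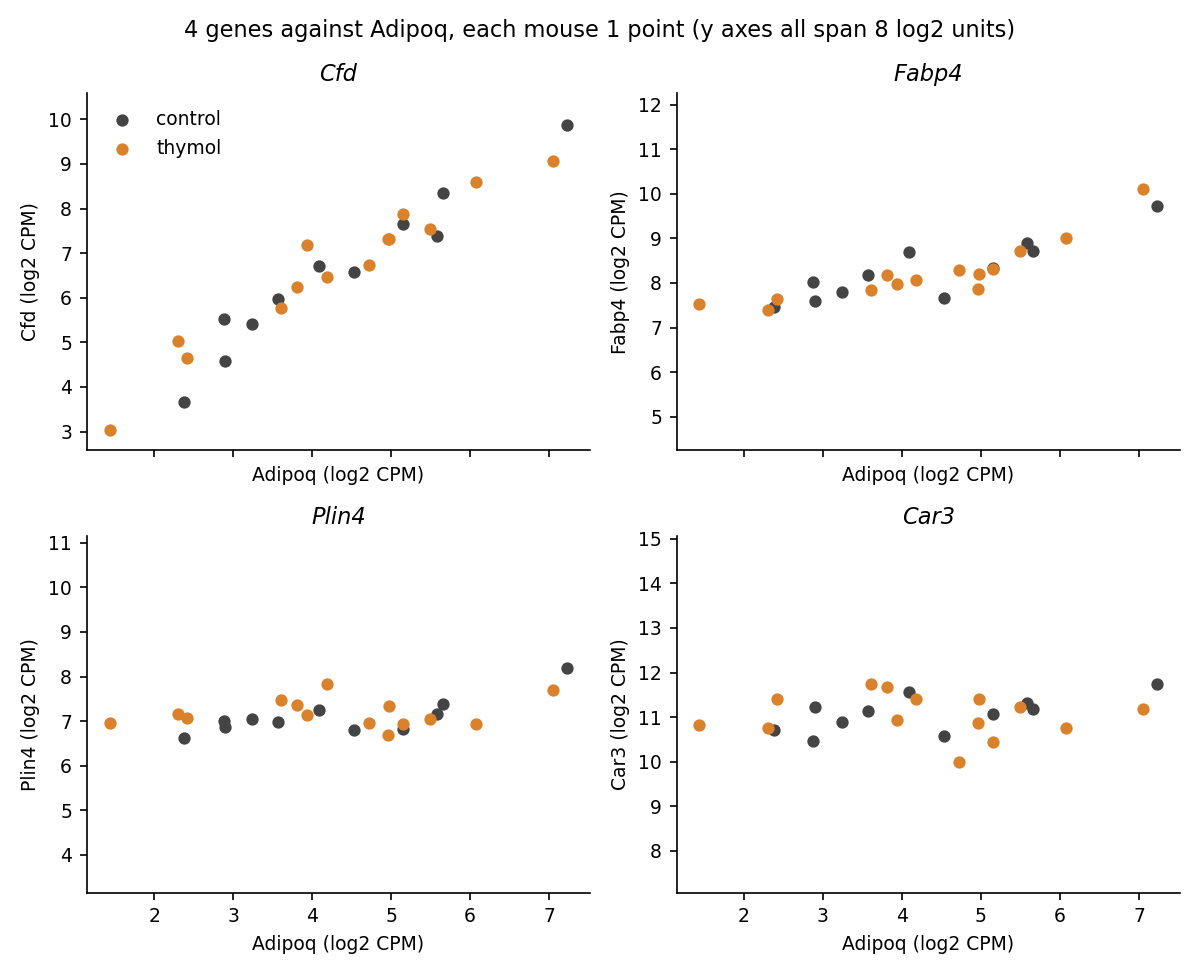
Log2 CPM of Cfd, Fabp4, Plin4 and Car3 (y axes, each spanning 8 log2 units) against Adipoq (x axis, log2 CPM), with 1 point for each control (grey) or thymol mouse (orange). Cfd rises about 1 unit per unit of Adipoq, Fabp4 rises by 0.40, and Plin4 and Car3 are nearly flat.

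Plin4, for all its place among adipocyte markers, was only loosely tied to the 5 genes. Its r with them was 0.37 to 0.47 over all mice (permutation p between 0.0187 and 0.0715) and its rho was 0.18 to 0.24 (permutation p between 0.251 and 0.396). With Adipoq, r was 0.44 (permutation p = 0.0279), rho was 0.24 (permutation p = 0.251), and r fell to 0.088 without Control 19 and Thymol 7, so that the relation with Adipoq rests largely on these mice. For Cfd, Plin1, Cidec and Retn, r with Plin4 was 0.26 to 0.30 without the 2 mice farthest from the median of the gene on the x axis. Within the control mice r of Plin4 with the 5 genes was 0.73 to 0.80, or 0.44 to 0.64 without Control 19, and within the thymol mice it was 0.062 to 0.13. Car3 had an r of 0.086 to 0.17 with the 5 genes (permutation p between 0.423 and 0.682) and a rho of 0.085 to 0.19. Within the control mice r of Car3 was 0.50 to 0.63, or 0.18 to 0.41 without Control 19, and within the thymol mice it was -0.20 to -0.096. The difference between the groups was tested as an interaction across all genes, and neither gene passed. The slope on Adipoq, thymol minus control, was -0.19 for Plin4 (95% interval -0.35 to -0.030, unadjusted p = 0.0214, adjusted p = 0.647) and -0.20 for Car3 (95% interval -0.42 to 0.021, adjusted p = 0.773). Without Control 19 these differences were -0.075 (unadjusted p = 0.389) and -0.15 (unadjusted p = 0.242).

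Plin4 had its highest r with Car3 and with Fabp4. For Plin4 and Car3, r was 0.62 (permutation p = 0.00082) and rho was 0.69 (permutation p = 0.00014), with an r of 0.56 without Control 19 and Thymol 11, 0.71 within control and 0.60 within thymol mice. In a model with treatment and Plin4, Car3 rose by 0.77 ± 0.18 (SE) per log2 unit of Plin4, with an adjusted p of 0.0546 over all genes (limma, Benjamini-Hochberg), against 0.317% of genes that passed. For Plin4 and Fabp4, r was 0.58 (permutation p = 0.00367) and rho was 0.36 (permutation p = 0.0777), with an r of 0.53 without the same 2 mice, 0.90 within control and 0.29 within thymol mice. Fabp4 had a slope of 1.10 ± 0.28 (SE) on Plin4 in that model and did not pass (adjusted p = 0.0961). For Car3 and Fabp4, r was 0.29 (permutation p = 0.167) and rho was 0.27 (permutation p = 0.192).

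Plin4, Car3 and Fabp4 had a negative r with Myh4, the myosin heavy chain of the fastest fibers. The r of Car3 with Myh4 was -0.61 (permutation p = 0.00132), its rho was -0.68 (permutation p = 0.00034), and r was -0.59 without the 2 farthest mice, -0.56 within control and -0.67 within thymol mice. For Plin4 and Myh4, r was -0.48 (permutation p = 0.0151), rho was -0.62 (permutation p = 0.00115), and r was -0.56, -0.37 and -0.65 in the same order. For Fabp4 and Myh4, r was -0.41 (permutation p = 0.0454), rho was -0.45 (permutation p = 0.0243), and r was -0.46, -0.47 and -0.35. With Myh7, the myosin of slow fibers, Car3 had an r of 0.43 (permutation p = 0.0328) and a rho of 0.57 (permutation p = 0.00361), and Plin4 an r of 0.36 (permutation p = 0.0799) and a rho of 0.45 (permutation p = 0.0242). Without the 2 farthest mice the r with Myh7 was 0.50 for Car3 and 0.40 for Plin4, within control mice 0.35 and 0.25, and within thymol mice 0.46 and 0.50. Adipoq had an r of -0.24 (permutation p = 0.251) and a rho of -0.28 (permutation p = 0.179) with Myh4, and an r of -0.12 (permutation p = 0.583) and a rho of -0.076 (permutation p = 0.718) with Myh7. Fabp4 had an r of -0.15 (permutation p = 0.450) and a rho of -0.019 (permutation p = 0.929) with Myh7. These are 8 of 128 relations between the 8 genes and 14 markers, depth and library number, and their p-values are unadjusted. In the models across all genes, Myh4 did not pass with Car3 (adjusted p = 0.114) or with Plin4 (adjusted p = 0.362). Plin4 overlaps Hdgfl2 on the other strand and the strand used for counting was not given in the sources used here, so their reads cannot be told apart, and r between the genes was 0.16.

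The genes closest to Plin4 and to Car3 were looked up after the values were seen. By r over 25 mice the closest to Plin4 were Pnpla2 (0.84), the lipase that starts the breakdown of stored triglycerides, Glul (0.78), which makes glutamine, Acsl1 (0.75), which activates fatty acids, Depp1 (0.73) and Nfkbia (0.72). All of them passed in the model with Plin4 (adjusted p between 0.000235 and 0.00821). How far their r with Plin4 rests on single mice was not tested. The highest value of Depp1 was 6.43 log2 CPM, against a mean of 3.40 and an SD of 0.88. The same values were 9.38, 7.78 and 0.54 for Glul and 7.70, 6.55 and 0.35 for Nfkbia. Over all mice r with Adipoq was 0.41 for Glul, 0.32 for Depp1 and 0.42 for Nfkbia. Without the 2 mice farthest from the Adipoq median it was 0.062, -0.13 and 0.14. For Pnpla2 it went from 0.68 to 0.46 and for Acsl1 from 0.49 to 0.26. Among the closest to Car3 were Pcnt (0.83), Gbe1 (0.79), the branching enzyme of glycogen, Lpl (0.74), the lipase that splits circulating triglycerides, and Fgfrl1 (0.73). Their adjusted p was between 0.00778 and 0.0131, against 0.272% of all genes that passed in the model with Car3. How far their r with Car3 rests on single mice was not tested either. Of these 9 genes, Pnpla2 also passed in the model with Adipoq, with a slope of 0.13 ± 0.028 (SE, adjusted p = 0.0106).

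Outside the listed genes, the 10 with the highest r with Adipoq were Ifi27l2a (0.95), Slc1a3 (0.95), Cyp2e1 (0.93), Cdo1 (0.93), Slc1a5 (0.93), Pck1 (0.92), Cebpa (0.88), Fasn (0.88), Rbp4 (0.87) and Trf (0.87). Their rho was 0.83 to 0.95 and the permutation p of r was 1e-05 each. Without the 2 mice farthest from the Adipoq median r was 0.81 to 0.94, and within each group it was at least 0.83. These genes were picked by r out of all genes, so the permutation p adds no support. The adjusted p-values of their slopes cover all genes. The 10 genes span several functions known in fat. Cebpa encodes the transcription factor C/EBPα that maintains the adipocyte state, Fasn makes fatty acids, and Pck1 makes the glycerol backbone of triglycerides from small precursors. Cdo1 breaks down cysteine, Slc1a3 and Slc1a5 carry glutamate and glutamine, Rbp4 carries retinol and Trf carries iron. The slopes on Adipoq differed among them. Pck1 rose by 1.17 ± 0.092 (SE) per log2 unit of Adipoq and Cyp2e1 by 1.06 ± 0.076, whereas Slc1a5 rose by 0.47 ± 0.039 and Trf by 0.45 ± 0.050, and each had an adjusted p of at most 1.23e-06 (limma, Benjamini-Hochberg). Of the 63 genes that rose with Adipoq (0.714% of those tested), 8 had a slope over 0.8, and these were Cfd, Plin1, Retn, Cidec, Pck1, Cyp2e1, Cdo1 and Nnat, the last of which was chosen after its values were seen.

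Only 2 genes fell with rising Adipoq (0.0227% of those tested). Neurl2, which overlaps Ctsa on the other strand, fell by 0.13 ± 0.027 (SE) log2 units per unit of Adipoq (r = -0.75, adjusted p = 0.0088). Ostn, which encodes the muscle peptide osteocrin and is named after its values were seen, fell by 0.20 ± 0.048 (r = -0.61, adjusted p = 0.035). The other genes with the lowest r were Rpl3l (-0.68), the ribosomal protein made in muscle, Col22a1 (-0.66), a collagen of the junction between muscle and tendon, Pstk (-0.65) and Smpd1 (-0.65), with adjusted p between 0.0546 and 0.172.

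Lists of genes for related functions and for other cell types were read in the same model. In that model 0.714% of all genes rose with Adipoq. Of 9 measured genes in a list of further adipocyte-selective genes, 7 rose with Adipoq (Trarg1, Sncg, Cyp2e1, Thrsp, Rbp4, Pck1 and Lipe) and the median r was 0.85, against -0.007 over all genes. Thrsp, which promotes lipid synthesis, had a slope of 0.52 ± 0.059 (SE, adjusted p = 5.09e-07). Of 26 measured genes for fat storage, synthesis and lipolysis, 8 rose (Scd1, Fasn, Acaca, Dgat1, Dgat2, Agpat2, Pnpla2 and Bscl2) and 18 did not pass, with a median r of 0.22. Scd1, which desaturates fatty acids, rose by 0.59 ± 0.079 per unit of Adipoq (adjusted p = 9.34e-06), Agpat2, which makes phosphatidic acid, by 0.38 ± 0.045 (adjusted p = 9.07e-07) and Acaca, which makes malonyl-CoA, by 0.27 ± 0.041 (adjusted p = 0.000111). Agpat2 overlaps the endothelial gene Egfl7 on the other strand, and Egfl7 had an r of -0.17 with Adipoq. Of 14 measured adipogenic transcription factors, Cebpa alone passed, and the next highest r was that of Ebf2 (r = 0.64, adjusted p = 0.0618). Of 9 measured adipokine receptors and complement genes, the complement gene C4b passed (0.40 ± 0.090, adjusted p = 0.0179), and of 15 measured fibro-adipogenic progenitor and fibroblast genes, Gsn passed (0.12 ± 0.028, adjusted p = 0.0266).

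Markers of other cells in the muscle were read beside these results. None of the 10 endothelial, 8 slow-fiber, 10 fast-fiber, 6 tendon, 4 Schwann cell, 5 smooth muscle and pericyte, 5 red blood cell and 6 mature muscle genes passed with Adipoq. Their median r was, in this order, 0.022, -0.14, -0.23, -0.21, 0.055, -0.11, 0.0050 and -0.24. Over all genes 0.736% passed. At that share lists this short would mostly hold no such gene, so these counts are not a result about the cells. The lowest r of these lists were those of the fast-fiber genes Tnni2 and Tnnt3, parts of the troponin complex that switches contraction on. Tnni2 had an r of -0.50 with Adipoq (permutation p = 0.0106) and a rho of -0.49, with an r of -0.60 without the 2 farthest mice, -0.39 within control and -0.58 within thymol mice (adjusted p = 0.561 in the model). Tnnt3 had an r of -0.46 (permutation p = 0.0198) and a rho of -0.46, with -0.61, -0.43 and -0.49 in the same order (adjusted p = 0.538). Tnni2, Tnnt3 and, below, C1qc were picked by the size of their r, and their permutation p-values are not adjusted for that. All 8 slow-fiber and all 6 tendon genes had a negative r, of -0.18 to -0.060 and -0.25 to -0.018. The 10 measured macrophage and leukocyte genes did not pass either, but all had a positive r of 0.28 to 0.61 with a median of 0.42. The highest was C1qc (r = 0.61, permutation p = 0.00109, adjusted p = 0.0517 in the model), a part of complement C1q that macrophages make. Their summed level went from 120 to 530 CPM between mice, and their part in the results for Fabp4 was not tested beyond its r with C1qa, the first gene of that list, of 0.20 (permutation p = 0.342, rho = 0.33) and with the endothelial gene Cdh5 of 0.11 (permutation p = 0.612, rho = 0.021). Depth moved little with Adipoq over all mice (r = 0.030 with log2 reads, permutation p = 0.887, and rho = -0.038, permutation p = 0.855), although r was -0.32 within control and 0.43 within thymol mice.

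**Figure D4:**
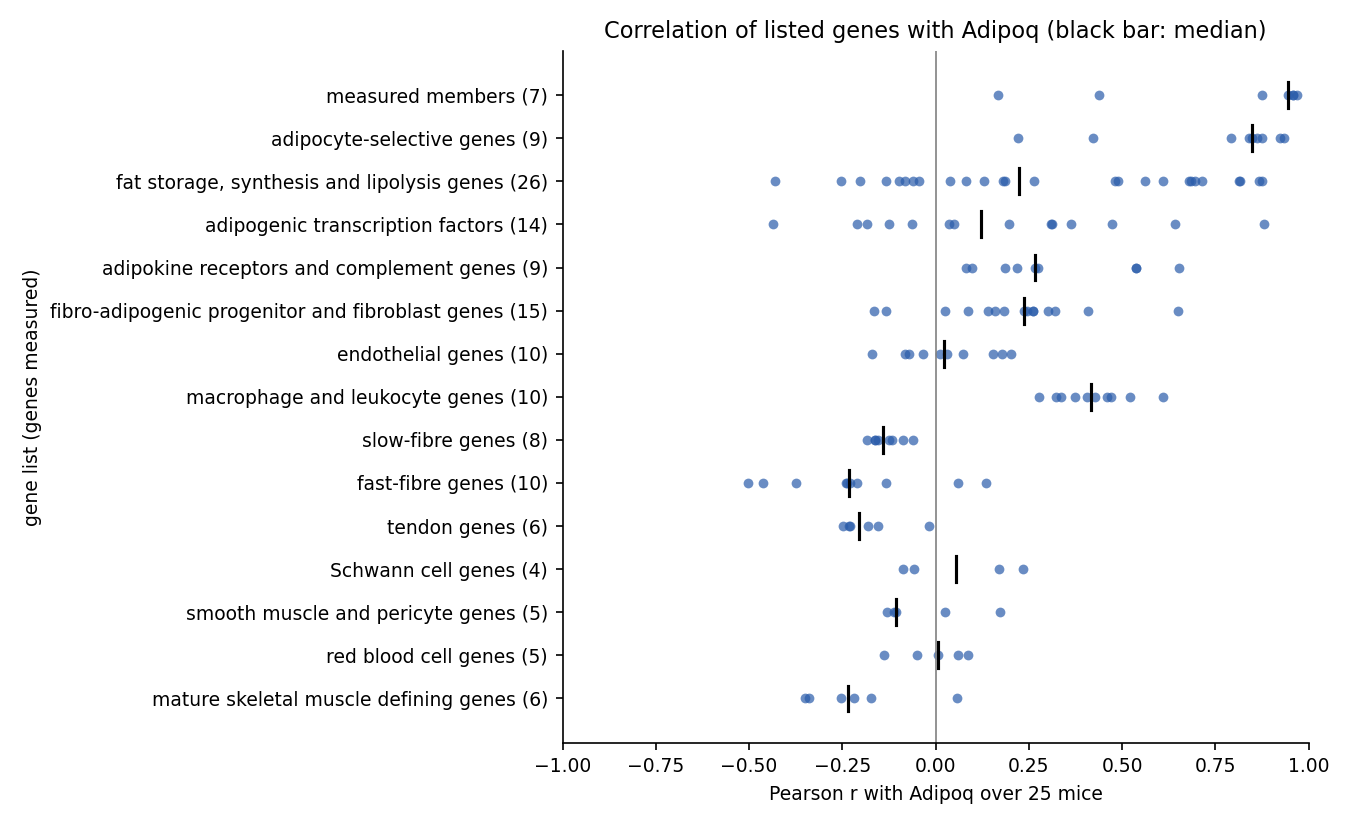
Pearson r with Adipoq over 25 mice (x axis) of every measured gene in 14 lists and of the 7 other measured adipocyte markers (rows, number of genes in parentheses), with a black bar at each median. Adipocyte markers and adipocyte-selective genes lie mostly above 0.79, and macrophage and leukocyte genes lie between 0.28 and 0.61. The median of the fibro-adipogenic progenitor and fibroblast genes is 0.24. The medians of the endothelial, fiber, tendon, Schwann cell, smooth muscle, red blood cell and mature muscle lists lie between -0.24 and 0.055. Single fast-fiber genes reach down to -0.50.

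Thymol was then compared with control for the listed genes. No gene of 8829 had an adjusted p under 0.05 (0% called; limma, Benjamini-Hochberg), and 312 genes (3.53%) had an unadjusted p under 0.05, none of them among the 8. Thymol minus control was 0.0034 log2 units for Adipoq (SE 0.54, 95% interval -1.09 to 1.10), 0.11 for Cfd (-1.10 to 1.32) and 0.033 for Retn (-1.04 to 1.10). It was -0.085 for Plin1 (-1.23 to 1.06), -0.019 for Cidec (-1.14 to 1.10) and -0.059 for Fabp4 (-0.56 to 0.44). It was 0.081 for Plin4 (-0.19 to 0.35) and -0.036 for Car3 (-0.37 to 0.29). The differences were above 0 for 4 genes and below 0 for 4, and the median over all genes was -0.0014. The lowest unadjusted p was 0.551, for Plin4, and the adjusted p was above 0.999 for each. With this spread between mice, a difference of 1 log2 unit in either direction lies within the interval for Adipoq, Cfd, Retn, Plin1 and Cidec, whereas it lies outside the interval for Fabp4, Plin4 and Car3. No difference between the groups was detectable with this number of mice.

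**Figure D5:**
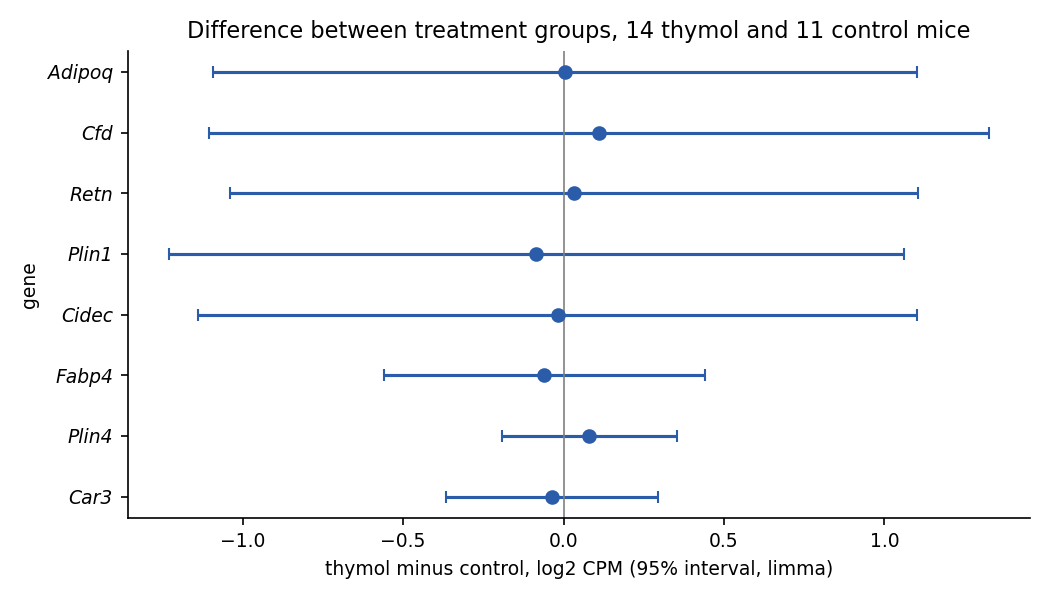
Thymol minus control in log2 CPM (x axis) for the 8 measured genes (rows), with points at the estimate and bars for the 95% interval from limma over 14 thymol and 11 control mice. Every interval includes 0, and those of Adipoq, Cfd, Retn, Plin1 and Cidec reach past 1 log2 unit on both sides, while those of Fabp4, Plin4 and Car3 do not.

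The spread itself was also compared, as the distance of each mouse from the median of its group. The SD in control and thymol mice was 1.49 and 1.53 log2 units for Adipoq, 1.76 and 1.62 for Cfd, 1.34 and 1.57 for Retn, 1.33 and 1.75 for Plin1 and 1.43 and 1.62 for Cidec. It was 0.68 and 0.69 for Fabp4, 0.42 and 0.32 for Plin4 and 0.39 and 0.49 for Car3. No gene of 8829 had an adjusted p under 0.05 (0% called; limma on absolute deviations, Benjamini-Hochberg), and 270 genes (3.06%) had an unadjusted p under 0.05. The lowest unadjusted p of the 8 was 0.43, for Car3. Large differences between mice were present in both groups, and no difference in their size was detectable. In the gene lists, none of 137 measured genes passed for thymol against control. Of all genes but Adipoq, 49.5% had a difference above 0. Of the 9 further adipocyte-selective genes, 7 did (median 0.19), and of the 14 adipogenic transcription factors 1 did (median -0.084), with 0 at an unadjusted p under 0.05 in both lists. Of the lists of other cells, 0 of 4 Schwann cell genes (median -0.36, 1 at an unadjusted p under 0.05), 0 of 6 tendon genes (median -0.096), 0 of 5 red blood cell genes (median -0.14) and 1 of 8 slow-fiber genes (median -0.26) did, the last 3 lists with 0 at an unadjusted p under 0.05. So did 2 of 10 endothelial (1 at an unadjusted p under 0.05), 2 of 5 smooth muscle and pericyte, 4 of 10 fast-fiber, 5 of 10 macrophage and leukocyte and 4 of 6 mature muscle genes. In the remaining lists 6 of 15 fibro-adipogenic progenitor and fibroblast, 4 of 9 adipokine receptor and complement and 19 of 26 fat storage genes did. Genes of a list can vary together between mice, so these counts are not separate observations, and a shift of a list was not tested.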

How the data were processed

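Gastrocnemius RNA from 25 mice was sequenced with a 3′ mRNA kit, with 1 library per mouse. Per the labels and the submitters' processing notes, the authors mapped reads to GRCm38 with STAR 2.5.3 and counted them per gene with HTSeq 0.6.1. The authors then removed genes with few reads, applied TMM scaling and deposited log2 CPM values for 8829 gene symbols. All 8829 genes had 30 or more reads in at least 6 mice. Low log2 values lay on steps of 1 read, and 100.0% of values gave whole reads within 0.05 read. Groups came from the sample labels. Since nothing says otherwise, each library was taken as a separate mouse, and p-values measure the spread between libraries.

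The deposited log2 values were tested with limma 3.58.1 in R 4.3.3 (moderated linear model with trend, two-sided, Benjamini-Hochberg over all genes, threshold 0.05). The models were treatment, treatment on the absolute deviation from the group median, and treatment plus the Adipoq value. Correlations used 100000 permutations of mice in numpy 2.4.6, with figures from matplotlib 3.10.9. The fits were tested on simulated data. The listed genes, gene lists and tests were chosen with earlier results of these data known. Genes were named by a rule (the listed genes, the 10 highest and 5 lowest r with Adipoq, up to 4 genes per list with the largest absolute r, and the first gene of each list), and other names are marked. Models with Plin4, Car3 or an interaction, and the grouping of Adipoq, Cfd, Retn, Plin1 and Cidec, were added after the data were seen. Positions and overlaps are from GENCODE M21 and promoter windows from RefSeq, both on GRCm38. Windows were shown for 4 genes, and none is shown for Fabp4 and Car3. 1 gene close to Car3 is not reported here.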

Additional observations from a re-analysis of the deposited data

Results flagged for a closer look

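Serpinh1, which encodes a chaperone for collagen, differed between the groups in its relation to Adipoq and is named after its values were seen. Its level was 4.08 log2 CPM in the lowest, 5.15 in the median and 6.43 in the highest control mouse, and 4.43, 5.12 and 5.86 in the thymol mice. It fell with Adipoq in control mice (r = -0.78) and rose with it in thymol mice (r = 0.70). The slope, thymol minus control, was 0.49 (95% interval 0.32 to 0.67, adjusted p = 0.0323, limma interaction, Benjamini-Hochberg over 8828 genes), and it was the 1 gene of all those tested (0.0113%) that passed. With each mouse left out in turn the difference was 0.42 to 0.54, and it passed in 9 of 25 such fits, with an adjusted p of 0.00129 to 0.785. Without Control 19 the difference was 0.44 (unadjusted p = 0.000186).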

How the results depend on the processing

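The count of 0 genes for thymol against control held under all 12 alternatives and with each mouse left out, with 234 to 348 genes at an unadjusted p under 0.05. The count of 0 for the spread between mice held under all 8 alternatives, with 204 to 300 genes at an unadjusted p under 0.05, and with each mouse left out, with 237 to 323 such genes. The 65 genes that varied with Adipoq became 43 with the 75% of genes of highest mean, 27 with the replicate block (25 of them among the 65) and 55 to 87 with each mouse left out. Cfd, Retn and Fabp4 passed in all 11 alternatives, Plin1 and Cidec in the 10 that tested them (the filter on the mean removed both), and Plin4 and Car3 in none of 11. The 1 gene of the slope difference became 0 to 1 with each mouse left out. The median r of the 28 pairs was 0.75 without the 2 mice farthest from the Adipoq median and 0.79 to 0.85 with each mouse left out. The differences between groups, with an adjusted p above 0.99 in every fit, moved as follows. With the replicate block they were -0.69 for Adipoq, -0.67 for Cfd, -0.71 for Retn, -0.68 for Plin1, -0.78 for Cidec, -0.35 for Fabp4, 0.10 for Plin4 and 0.12 for Car3, and the spread difference of Adipoq was 0.089. With library number as a covariate Adipoq was at -0.00050. Voom on the recovered reads gave 0.069 for Plin1 and 0.14 for Cidec. Array weights gave 0.092 for Cidec, 0.014 for Fabp4 and 0.055 for Car3. Quantile normalization gave 0.043 and log2(CPM + 1) 0.019 for Cidec. Without the mice with the highest and the lowest Adipoq, Adipoq was at 0.52, Cfd at 0.72, Retn at 0.58, Plin4 at 0.21, Plin1 at 0.45, Cidec at 0.57, Fabp4 at 0.14 and Car3 at 0.046, and the Car3 slope was at -0.0042. These mice were Control 19 and Thymol 3, so control lost its highest mouse and thymol its lowest. The choice of mice thus raises the difference of Adipoq and of genes that follow it, and no conclusion is drawn from this setting. With each mouse left out, the differences ranged from -0.21 to 0.30 for Adipoq, -0.17 to 0.45 for Cfd, -0.33 to 0.19 for Plin1, -0.23 to 0.29 for Cidec, -0.20 to 0.085 for Fabp4, -0.096 to 0.045 for Car3 and -0.15 to 0.31 for Retn. The spread differences ranged from -0.17 to 0.19 for Adipoq, -0.36 to 0.060 for Cfd, -0.067 to 0.065 for Plin4, -0.037 to 0.38 for Cidec, -0.19 to 0.036 for Fabp4 and -0.039 to 0.39 for Retn. Beyond what the choice of left-out mice fixes, the cause of these changes was not tested. The block is the first number of the label. Some of these numbers are shared by mice of both groups, and others belong to only 1 mouse, such as that of Thymol 7. A mouse alone in its block adds nothing to the estimates of the block fit, which thus rest on fewer mice. In 9 pairs of a control and a thymol mouse with the same number, the deviations from the group means correlated at -0.18 to 0.10, with a median of 0.053. The other 145 pairs gave -0.23 to 0.25, with a median of -0.0089, so the number was not taken as a pairing. Depth limits Plin1, Cidec and Retn most, with 2 or 3 reads in the lowest mouse.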
